A study of Mus musculus with 10 samples.

Results

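miR-124 and miR-9 are microRNAs (miRNAs) of nervous tissue, and both arms of each hairpin, mmu-miR-124-3p, mmu-miR-124-5p, mmu-miR-9-5p and mmu-miR-9-3p (the mouse prefix is left out from here on), were followed here in the mouse retina. These 4 mature miRNAs were chosen by name from the 1061 in the deposited table, all 4 were found there, and all 4 passed the filter on low values that left 484 miRNAs for testing. Small RNA had been sequenced from both retinas of 5 wild type C57BL/6J mice, numbered 61, 64, 65, 66 and 68, at postnatal day 34, which gave 5 left and 5 right libraries. All mice had carried a goggle with a -20 D lens over 1 eye for 10 days from postnatal day 24, and the other eye had no lens. Such a negative lens shifts the image plane to behind the eye's photoreceptors and makes a growing eye myopic. Since each library is labelled by mouse and by eye, but nothing says which eye wore the lens, the contrast is right against left in the same mouse, with no treated group. The mice had been anesthetized with ketamine and xylazine when the goggles were attached, and their sex is not stated.

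miRNAs are short RNAs that guide Argonaute proteins to messenger RNAs, mainly through the seed, the bases 2 to 8 from the 5′ end. miR-124-3p is a hallmark of differentiated neurons and represses transcripts of non-neuronal cells, among them the splicing regulator Ptbp1, and in mice loss of its host gene Rncr3 impairs the survival of cone photoreceptors. miR-9 acts in neural progenitors as well as in neurons and glia, and in the developing retina it works beside let-7 and miR-125b in late progenitors. miR-9-5p and its opposite arm miR-9-3p are both known as regulators of the REST silencing complex, with REST and its partner CoREST as targets. The libraries were made from whole retina, so that neurons and glia were not separated, and fewer cells of a type cannot be told apart from less RNA per cell.

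The mature sequences of miR-9 are shown because both arms are read out in the table and their seeds differ. They are from RefSeq (GRCm38.p6), which was matched for 2 of the 4 members, and the seed is in capitals.

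miR-9-5p: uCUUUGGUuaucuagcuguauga

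miR-9-3p: aUAAAGCUagauaaccgaaagu

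Neither seed was shared by another miRNA among the 909 of the table that had a RefSeq sequence. The GC content was low in both arms, 34.8% in miR-9-5p and 31.8% in miR-9-3p, where the 424 tested miRNAs with a sequence had a median of 47.8%.

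The genome holds 3 copies of the miR-9 hairpin. They are printed with both mature arms in capitals to show that the arms are the same in each copy, whereas loop and flanks differ.

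Mir9-1: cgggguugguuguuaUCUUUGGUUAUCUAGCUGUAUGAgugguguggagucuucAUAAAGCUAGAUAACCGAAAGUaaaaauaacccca

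Mir9-2: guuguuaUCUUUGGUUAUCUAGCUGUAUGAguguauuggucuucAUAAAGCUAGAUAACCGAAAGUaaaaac

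Mir9-3: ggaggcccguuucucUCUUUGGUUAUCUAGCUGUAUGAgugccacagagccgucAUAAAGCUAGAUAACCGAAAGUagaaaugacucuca

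In GRCm38, Mir9-1 lies on the plus strand of chromosome 3 (88215598 to 88215686) in an intron of the lincRNA Gm3764. Mir9-2 (chromosome 13, 83738814 to 83738885, plus strand) lies in an exon of the lincRNA C130071C03Rik, and Mir9-3 (chromosome 7, 79505264 to 79505353, plus strand) in an intron of the lincRNA Mir9-3hg. The table lists 1 position for each arm, at Mir9-1, with miR-9-5p from 88215613 to 88215635 and miR-9-3p from 88215652 to 88215673. A read of either arm fits all 3 copies, so the values are totals over these loci or depend on how such reads were assigned, which is not given in the sources used here. miR-124 also has 3 annotated copies, all on the plus strand. Mir124a-1 (chromosome 14, 64590657 to 64590741) lies in an exon of its lincRNA host Mir124a-1hg, Mir124a-2 (chromosome 3, 17795662 to 17795770) overlaps an exon of Mir124-2hg, and Mir124a-3 (chromosome 2, 180894040 to 180894107) overlaps an exon of the lincRNA Gm27032. The table places miR-124-3p (180894083 to 180894102) and miR-124-5p (180894045 to 180894066) at the copy on chromosome 2.

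The order of the 4 members was the same in each of the 10 libraries: miR-124-3p, then miR-9-5p, then miR-9-3p, then miR-124-5p, with no overlap between neighbours. Mean levels over the 10 libraries were 82241 ± 3763 (SD) normalised counts for miR-124-3p, 52911 ± 6352 for miR-9-5p, 871 ± 98.7 for miR-9-3p and 529 ± 34.8 for miR-124-5p. The main arms took 0.475% and 0.306% of the normalised total, and held ranks 12 to 14 and 15 to 20 of the 1061 miRNAs. The minor arms lay at ranks 112 to 132 for miR-9-3p and 141 to 152 for miR-124-5p. Because adapters are ligated to some sequences better than to others, a ratio of levels between miRNAs or arms is not a ratio of molecules, while 1 miRNA can be followed across libraries.

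The normalisation had given the libraries nearly the same set of values, with totals from 17312269 to 17312436, so that a value reflects mainly the rank of the miRNA. Sequencing depth is unknown, and counting intervals are therefore not given. At the top of the table the values move in steps. miR-124-3p took only 3 different values, and between its ranks 1 step was worth 0.12 or 0.10 on the log2 scale. Its neighbour in rank was let-7f-5p, which lay above it in 8 libraries and below it in the other 2. miR-9-5p took 5 different values and shared its ranks with, among others, miR-30d-5p, which was above it in 4 libraries and below it in 6.

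**Figure D1:**
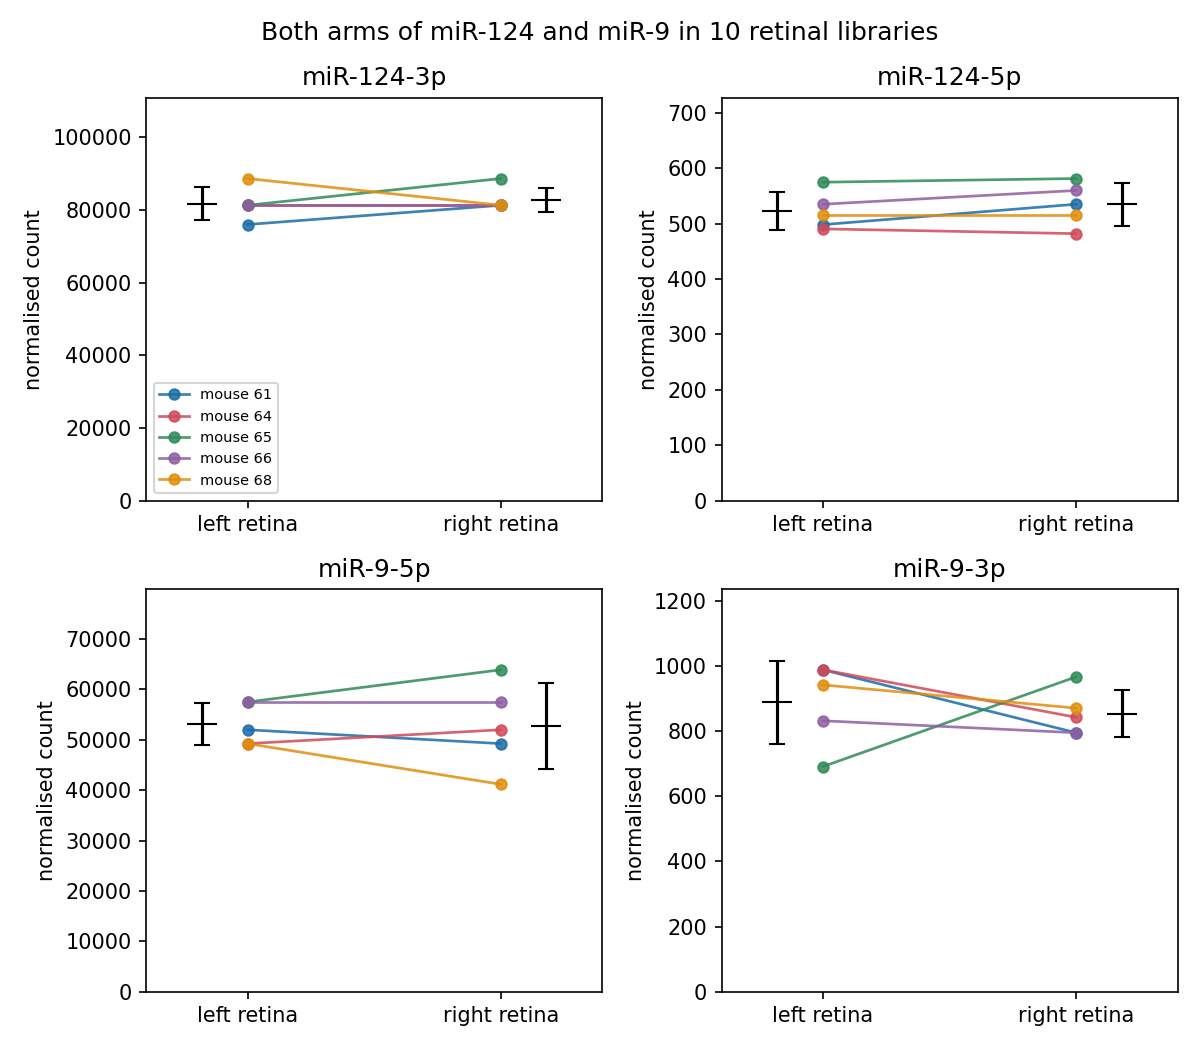
Normalised counts (vertical axes, from 0) of the 4 members in left and right retina. Each line joins both eyes of 1 mouse, and the black bars beside the points are mean and SD of 5 libraries. The miR-124 lines are nearly flat, and those of miR-9-3p cross.

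The main comparison asked whether these neuronal miRNAs differed between the eyes of animals of which 1 eye had worn the lens. miR-124-3p was nearly level between the eyes. In the left retinas it was at 76000 in mouse 61, 81299.8 in mice 64, 65 and 66, and 88655.3 in mouse 68. In the right retinas it was at 81299.8 in mice 61, 64, 66 and 68 and at 88655.3 in mouse 65. Both sides shared the same central value, and the left side held both the lowest and, with the right, the highest library. Left libraries averaged 81711 ± 4510 and right libraries 82771 ± 3289 (SD, n = 5), with a log2 fold change, right minus left, of 0.02 (SE 0.04). The 95% interval ran from 0.952-fold to 1.08-fold. By limma the adjusted p was 0.978, with the right eye higher in 2 mice, lower in 1 and equal in the other two. The log2 fold change was -0.01 without mouse 65 and 0 without mouse 61.

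miR-124-5p, the minor arm of the same hairpins, had close values in both eyes of each mouse. In mice 61, 64, 65, 66 and 68 the left retinas were at 498, 490, 575, 535 and 515 normalised counts. The right retinas, in the same order of mice, were at 535, 482, 581, 560 and 515. Both eyes of mouse 65 were the highest of their side and both eyes of mouse 64 the lowest, and the sides overlapped fully. The side means were 523 ± 33.8 and 535 ± 38.7 (SD, n = 5), with a log2 fold change of 0.03 (SE 0.07) and an interval from 0.907-fold to 1.15-fold (limma, adjusted p = 0.978).

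miR-9-5p, the main arm of miR-9, had its extremes in 2 right libraries. The left retinas were at 51973.5 in mouse 61, 49232.7 in mice 64 and 68, and 57478.5 in mice 65 and 66. The right retinas were at 49232.7 in mouse 61, 51973.5 in mouse 64, 63868.4 in mouse 65, 57478.5 in mouse 66 and 41158 in mouse 68. The highest library, the right retina of mouse 65, was 1.55 times the lowest, the right retina of mouse 68, and all left libraries lay between them. Left libraries averaged 53079 ± 4169 and right libraries 52742 ± 8563 (SD, n = 5). The log2 fold change was -0.02 (SE 0.06), with an interval from 0.894-fold to 1.09-fold (limma, adjusted p = 0.978). The right eye was higher in 2 mice, lower in 2 and equal in mouse 66, and without mouse 68 the log2 fold change was 0.04.

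miR-9-3p, the minor arm known as a regulator of CoREST, had the widest differences between eyes of the 4 members. In mice 61, 64, 65, 66 and 68 it was at 988, 988, 691, 831 and 941 normalised counts in the left retinas. In the right retinas of the same mice it was at 795, 842, 966, 795 and 870. The right eye was lower in 4 of 5 mice and higher in mouse 65, whose left retina was the lowest of all libraries. The side means were 888 ± 127 and 853 ± 70.7 (SD, n = 5), and the log2 fold change was -0.05 (SE 0.13; limma, adjusted p = 0.978), with an interval from 0.781-fold to 1.20-fold. Of all tested miRNAs, 17.8% were lower on the right in at least 4 of 5 mice. Without mouse 65 the log2 fold change of miR-9-3p was -0.18, with an adjusted p by limma of 0.37, and without mouse 61 it was 0.02.

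**Figure D2:**
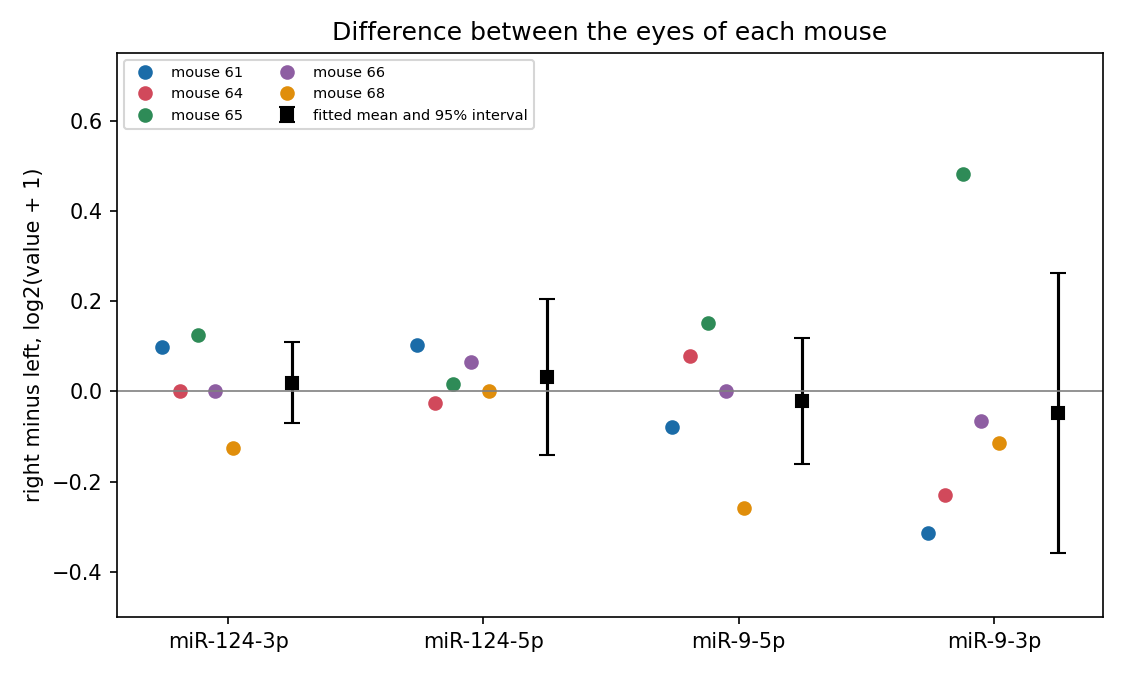
Right minus left difference of log2(value + 1) for each mouse (coloured points) and the fitted mean with its 95% interval (black squares and bars). All 4 intervals include 0, and the point of mouse 65 for miR-9-3p, at 0.48, is the farthest from 0.

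None of the 4 members passed the test, 0 at an adjusted p under 0.05 and 0 at an unadjusted p under 0.05 by limma. Over all 484 tested miRNAs 0 (0%) passed, and 12 (2.48%) were at an unadjusted p under 0.05. The median log2 fold change was 0.00 for the members, with 2 above and 2 below 0, and -0.01 for all tested miRNAs, with 224 above and 253 below 0. No member had the same direction in all 5 mice, as 3.72% of the tested miRNAs did, and none had separate left and right values, as 0.826% did. The number at an unadjusted p under 0.05 by limma depended on mouse 65. Without this mouse it was 63, against 10 without mouse 61 and 7 without each of mice 64, 66 and 68. In each of these fits 0 miRNAs passed at an adjusted p under 0.05. Had the lens sat on different sides in different mice, its effect would have been weakened in the mean difference.

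The size of the difference between eyes does not depend on which eye had the lens. Taken without sign and averaged over the 5 mice, the difference between the eyes was 0.07 on the log2 scale for miR-124-3p, 0.04 for miR-124-5p, 0.11 for miR-9-5p and 0.24 for miR-9-3p. The median over all tested miRNAs was 0.28. Abundant miRNAs vary less, and among the 50 tested miRNAs nearest in level the median was 0.13 for the main arms, 0.19 for miR-124-5p and 0.16 for miR-9-3p. The main arms ranked 13 and 18 by mean, so most of their 50 nearest miRNAs were less abundant. For the main arms the comparison is therefore not fully matched in level. The residual SD of miR-124-5p, after mouse and side, was 0.04, with 1 of its 50 nearest miRNAs lower. That of miR-9-3p was 0.22, with 40 of its 50 nearest miRNAs lower. miR-124-3p (0.07) and miR-9-5p (0.11) had 11 and 24 of 50 lower.

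The differences of miR-9-3p lay beside a trend with base composition that ran through the libraries. Per 10 points of GC content, the right minus left difference over the 424 tested miRNAs with a sequence moved on the log2 scale by 0.19 in mouse 61, 0.12 in mouse 64, 0.06 in mouse 66 and 0.04 in mouse 68, and by -0.17 in mouse 65. The differences of miR-9-3p, with a GC content below the median, had the opposite sign in each mouse: -0.31 in mouse 61, -0.23 in 64, -0.07 in 66, -0.11 in 68 and 0.48 in 65. With the GC trend of each mouse removed, a step chosen after the data were seen, they were 0.02, -0.02, 0.03, -0.04 and 0.18 in the same order of mice. The mean went from -0.05 to 0.03 (exact sign-flip test, two-sided, p = 0.5625). For miR-9-5p the same step gave 0.20 in mouse 61, 0.26 in 64, 0.08 in 66, -0.20 in 68 and -0.10 in 65, where the uncorrected differences were -0.08, 0.08, 0.00, -0.26 and 0.15. A fitted trend tends to give miRNAs of low GC content the opposite sign. How many others were opposite in all 5 mice is not given here, so these signs may not be particular to miR-9-3p. Whether base composition had a part in the differences of these arms was not tested further.

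**Figure D3:**
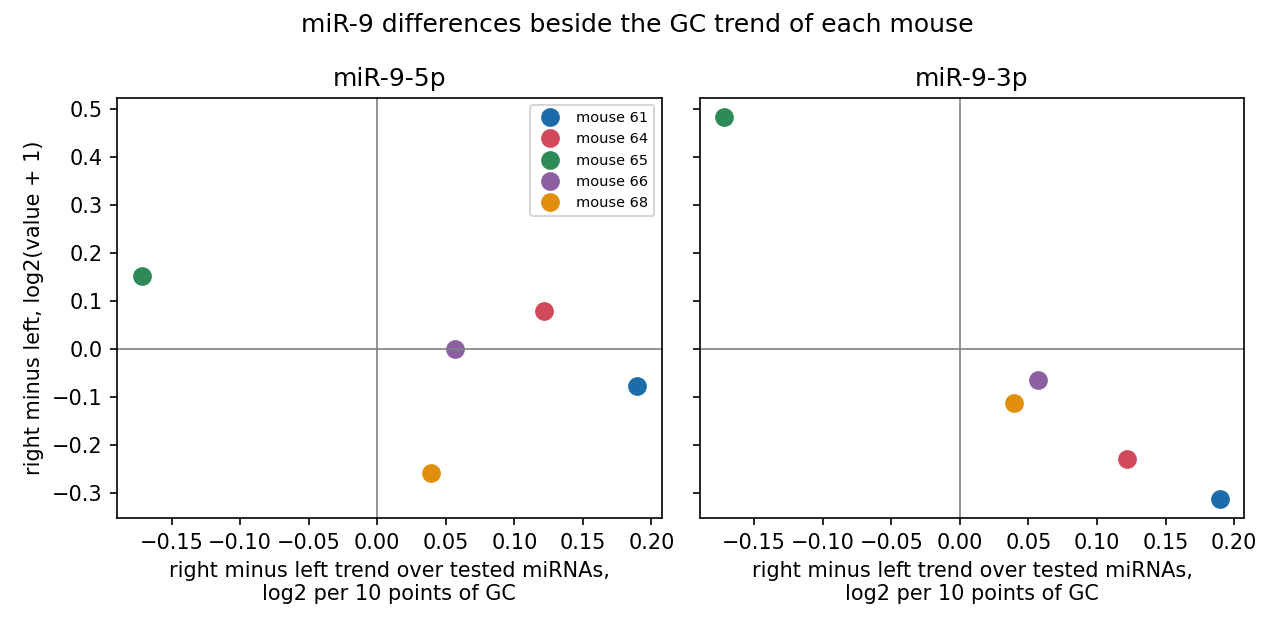
Right minus left difference of miR-9-5p and miR-9-3p (vertical axis, log2) against the GC trend of the same mouse over all tested miRNAs with a sequence (horizontal axis), 1 point for each of 5 mice. For miR-9-3p the mice with a positive trend lie below 0 and mouse 65 lies above 0, while the points of miR-9-5p are mixed.

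Arm use was described by the ratio of the main to the minor arm within each library. For miR-124 the 3p arm was 156 ± 10.0 times the 5p arm (SD over 10 libraries), from 141 in the left retina of mouse 65 to 172 in the left retina of mouse 68. miR-124-5p thus made up between 0.578% and 0.702% of both arms. For miR-9 the 5p arm was 61.7 ± 11.4 times the 3p arm, from 47.3 in the right retina of mouse 68 to 83.2 in the left retina of mouse 65. The share of miR-9-3p ran from 1.19% to 2.07%. On the log2 scale the SD over libraries was 0.09 for miR-124 and 0.26 for miR-9.

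Among 126 hairpin names with both arms tested, miR-124 had the 23rd and miR-9 the 31st largest ratio between arms, where the median ratio was 9.44. The median SD over libraries was 0.36 on the log2 scale. 1 hairpin name had a lower SD than miR-124, and 33 had a lower SD than miR-9. The hairpin names were not matched for level, and abundant miRNAs vary less. The mouse means of the arms of miR-9 came in different orders, but those of miR-9-3p spanned only 1.13-fold. miR-9-3p did not pass the test between mice (moderated F test of limma, adjusted p = 0.965), so its order is uncertain. The mean of both eyes of miR-9-5p was highest in mouse 65 (60673) and mouse 66 (57478.5) and lowest in mouse 68 (45195), whereas that of miR-9-3p was lowest in mouse 66 (813) and mouse 65 (829) and was at 906 in mouse 68.

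**Figure D4:**
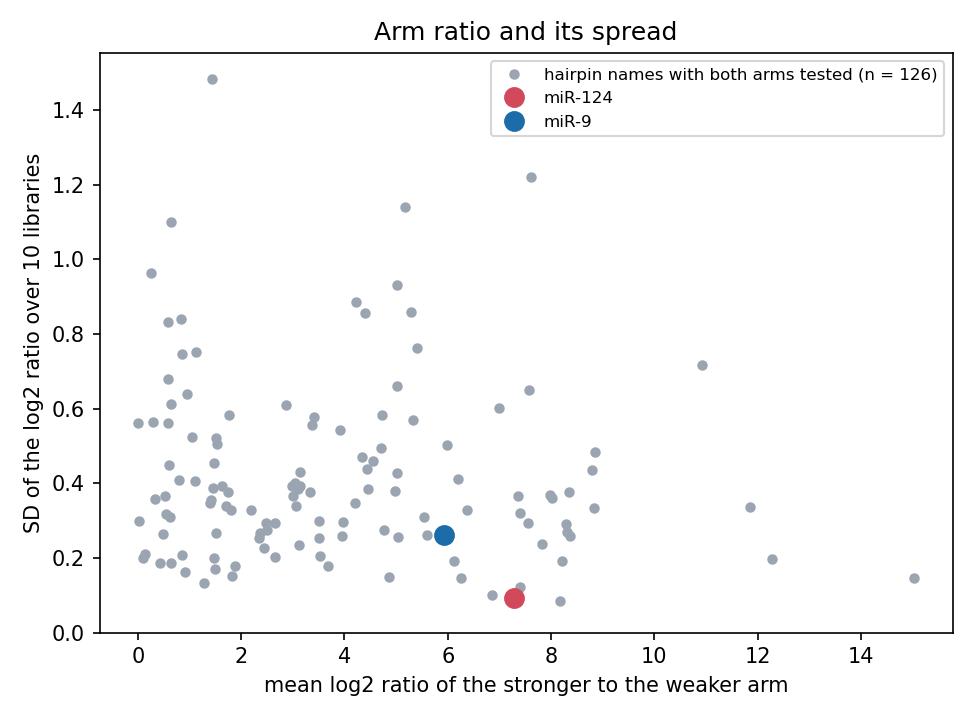
Mean log2 ratio of the stronger to the weaker arm (horizontal axis) and its SD over 10 libraries (vertical axis) for 126 hairpin names, with miR-124 and miR-9 in colour. miR-124 lies near the bottom at a ratio of 7.28, and miR-9 at 5.92 with an SD of 0.26.

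Between the eyes the arm ratios were close. The log2 ratio of miR-124-3p to miR-124-5p was 7.29 ± 0.11 in left and 7.27 ± 0.08 in right retinas (SD, n = 5), a difference of -0.01 ± 0.09 (SD over 5 mice; exact sign-flip test, two-sided, p = 0.8125). It was higher on the right in 2 mice and lower in 3. For miR-9 the log2 ratio of 5p to 3p was 5.91 ± 0.32 on the left and 5.94 ± 0.23 on the right, a difference of 0.03 ± 0.27 with the right higher in 3 mice (exact sign-flip test, p = 0.875). In single mice the miR-9 difference ran from -0.33 in mouse 65 to 0.31 in mouse 64. Each is from 1 library per eye, so a shift in arm use in a single mouse cannot be told from variation between libraries.

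The balance of both families was taken as miR-124-3p over miR-9-5p. It was 1.57 ± 0.197 over the 10 libraries, lowest in the right retina of mouse 65 (1.39) and highest in the right retina of mouse 68 (1.98). Both eyes of mouse 68 were above the other 8 libraries. The right minus left difference was 0.04 ± 0.11 on the log2 scale (SD over 5 mice; exact sign-flip test, p = 0.5). For these 3 ratios the adjusted p was 0.875 each, and with 5 mice the exact test cannot give a p below 0.0625.

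**Figure D5:**
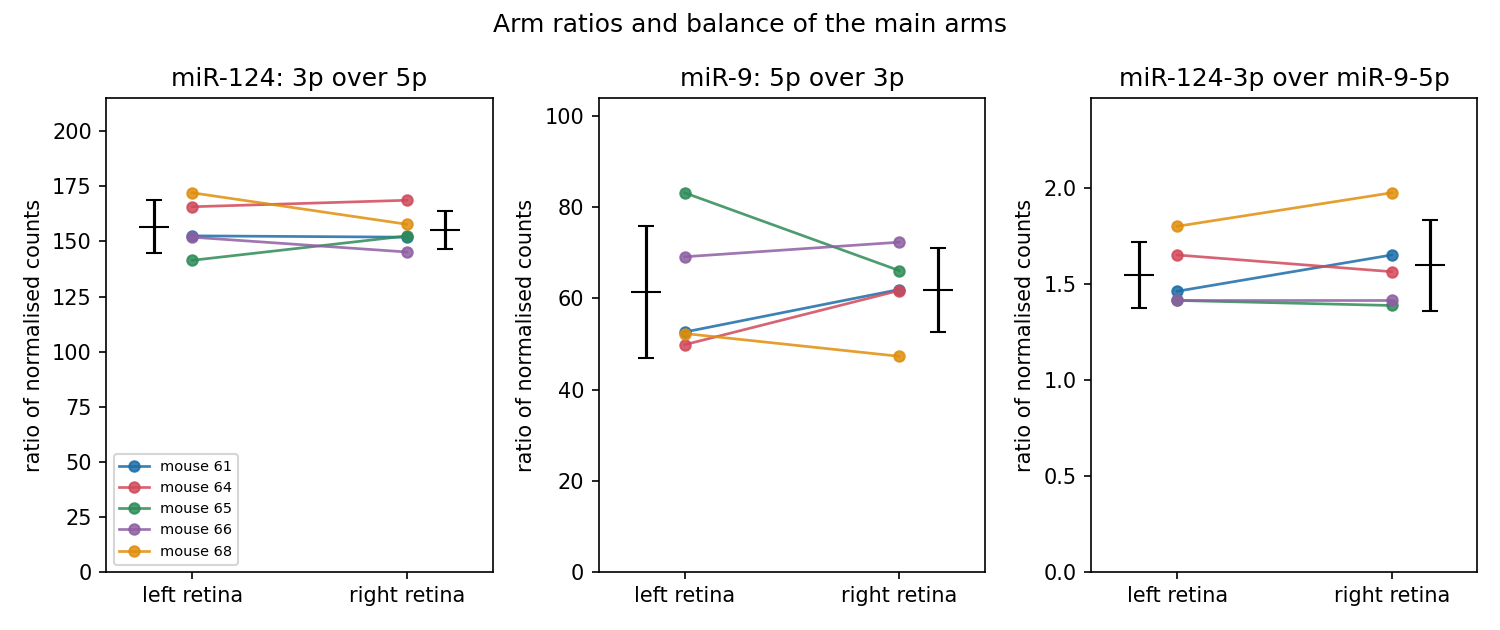
Ratios of normalised counts (vertical axes, from 0) in left and right retina, with a line for each mouse and mean and SD of 5 libraries in black. The ratio of miR-9 arms spans 47.3 to 83.2, and both eyes of mouse 68 lie highest in the ratio of miR-124-3p to miR-9-5p.

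A second question was whether the members differed among the 5 mice by more than between both eyes of a mouse. miR-9-5p came closest to a difference. Its means of both eyes were 60673 in mouse 65, 57478.5 in mouse 66, 50603 in mice 61 and 64 and 45195 in mouse 68, a range of 1.34-fold. The moderated F of limma was 6.74, with an unadjusted p of 0.0181 and an adjusted p of 0.210, so it did not pass. Without each mouse in turn F ran from 6.07 to 9.60, and without the mean-variance trend it was 3.75, with an unadjusted p of 0.0829 and an adjusted p of 0.378 by limma. The other 3 members had adjusted p values by limma of 0.698 (miR-124-3p), 0.663 (miR-124-5p) and 0.965 (miR-9-3p). Of all 484 miRNAs 8 (1.65%) passed this test, and 68 (14%) were at an unadjusted p under 0.05. With median-ratio rescaling 12 passed. The number that passed was 3 without mouse 68, 4 without mouse 64, 4 without mouse 66, 5 without mouse 61 and 7 without mouse 65. Without its sign, the log2 difference of miR-124-5p between mice on the same side averaged 0.12, against 0.04 between eyes, and for miR-9-5p it was 0.22 against 0.11. For miR-124-3p both were 0.07, and for miR-9-3p the difference between eyes (0.24) was above that between mice (0.20). Over the 479 tested miRNAs that varied between mice, the difference between eyes was a median of 0.915 times that between mice, and it was the smaller of both in 279. Libraries of 1 mouse may also have been handled together, which cannot be told apart from the animal.

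Other neuronal miRNAs gave a list of 13, all of them tested. By limma 0 of the 13 passed right against left and 1 was at an unadjusted p under 0.05, with 6 above and 7 below 0 and a median log2 fold change of -0.02. miR-138-5p, a regulator of dendritic spines, was the most abundant, at 5142 ± 247 normalised counts in left and 5079 ± 376 in right retinas (SD, n = 5), well below the main arms of miR-124 and miR-9. miR-128-3p, a brain-enriched miRNA, was at 3594 ± 1415 and 3384 ± 1469 and was the 1 member of the list that passed the test between mice (limma, adjusted p = 0.00390). It was between 1535 and 2117 in both eyes of mice 61 and 68 and between 4352 and 4871 in those of mice 64, 65 and 66. In the list of 5 neuronal activity miRNAs, 0 passed by limma, 0 were at an unadjusted p under 0.05, and all 5 lay below 0, from -0.10 to -0.01. Of all 484 tested miRNAs 253 lay below 0. This list holds both arms of miR-132 and of miR-212, so its 5 signs are not separate. Its most abundant members were miR-132-3p, at 2510 ± 413 in left and 2348 ± 359 in right retinas, and miR-212-3p, at 579 ± 50.8 and 550 ± 44.7 (SD, n = 5).

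The let-7 family and miR-125b-5p act beside miR-9 in late retinal progenitors. In this list of 9, 0 passed by limma and 0 were at an unadjusted p under 0.05, with 5 above, 3 below and 1 at 0, and a median log2 fold change of 0.00. Its most abundant members were let-7a-5p, with a log2 fold change of -0.07, and let-7g-5p, with 0.02.

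The miRNAs with the courses most like those of the members were found by the root mean square difference over 10 libraries, each profile centred on its own mean log2 value. This measure favours miRNAs that hardly vary and carries no test. For miR-124-3p they were miR-22-3p (0.05), miR-361-3p (0.06) and miR-183-5p (0.06), the last with 1 value in all libraries, where the median distance over tested miRNAs was 0.27. For miR-124-5p they were miR-181a-1-3p (0.05), miR-181b-5p (0.07) and miR-93-5p (0.08). For miR-9-5p they were miR-143-3p (0.10), miR-872-3p (0.11) and miR-300-3p (0.11). For miR-9-3p they were miR-598-3p (0.10), miR-582-3p (0.11) and miR-192-5p (0.11). By level, the nearest to miR-124-3p was let-7f-5p, with 86124 ± 5336 normalised counts (SD over 10 libraries), and the nearest to miR-9-5p was miR-30d-5p, with 50623 ± 4677, and each pair overlapped in range. The miRNAs that followed these in level were miR-181c-5p and miR-27b-3p for miR-124-3p, and miR-191-5p and miR-26b-5p for miR-9-5p. Those nearest to miR-124-5p were miR-15b-5p, miR-106b-3p and miR-370-3p, and those nearest to miR-9-3p were miR-23b-3p, let-7d-3p and miR-181c-3p.

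Lists named for other cells were also read, and a list sum does not measure how much of that cell type a library held. The photoreceptor miRNAs miR-182-5p (9840430 normalised counts) and miR-183-5p were at 1 value in all libraries and far above the members, while miR-96-5p of the same cluster was at 33140 ± 8560 (SD over 10 libraries), below miR-124-3p and miR-9-5p. The summed skeletal muscle list of 4 was between 295 and 1742 on the left, highest in mouse 68, and between 279 and 400 on the right, led by miR-133a-3p and miR-133b-3p, with miR-1a-3p and miR-206-3p at means of 5.48 and 1.29. The list of lens, cornea and surface epithelium was between 1220 and 2315 on the left and between 2122 and 22626 on the right, led by miR-184-3p and miR-203-3p. In the right retina of mouse 65, where the list was highest, miR-184-3p alone was at 22383.7. miR-203-3p was between 194 and 228 in the 10 libraries, miR-205-5p at most at 49.4 and miR-200b-3p at most at 15.7. The right retina of mouse 65 was also the library with the most miR-9-5p and miR-124-5p. It had the highest miR-124-3p together with the left retina of mouse 68, where the muscle list was highest. Without mouse 65 the log2 fold changes were -0.06 for miR-9-5p, 0.04 for miR-124-5p and -0.01 for miR-124-3p, and without mouse 68 they were 0.04, 0.04 and 0.06. The retinal pigment epithelium list (miR-204-5p and miR-211-5p) was between 209809 and 224482 on the left and between 213245 and 220543 on the right. In every library miR-204-5p made up 203500 of it, above miR-124-3p and miR-9-5p. Whether these miRNAs came from pigment epithelium or from other cells of the retina was not tested. Red blood cell miRNAs, led by miR-486a-5p and miR-451a, summed to between 2604 and 3003 on the left and between 2555 and 4420 on the right. The sum was nearly all miR-486a-5p, at a mean of 3014, with miR-451a at 48.6 and miR-144-3p at 11.5. Their log2 fold changes were 0.29, -0.03 and -0.55 in this order, so the sum is mainly a value of miR-486a-5p. Endothelial miR-126a-5p and miR-126a-3p summed to between 7870 and 8926 and between 7427 and 9110. Leukocyte miRNAs, led by miR-150-5p and miR-142a-5p, summed to between 1578 and 2228 and between 1788 and 2336. Their means were 1825 for miR-150-5p, 113 for miR-142a-5p, 5.69 for miR-142a-3p and 1.38 for miR-223-3p. By limma 0 members of these 7 lists passed right against left, 1 (miR-486a-5p) was at an unadjusted p under 0.05, and their part in the values of miR-124 and miR-9 was not tested.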

How the data were processed

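The deposited values are a signal per mature miRNA and library that the authors made from reads and called normalised counts. The submitters' processing notes name the tools Partek and Bowtie, with no versions, and GRCm38 and mm10 as builds. Per the labels, small RNA was extracted with a column kit and libraries were made with the TruSeq Small RNA kit. How adapters were trimmed, which miRNA annotation served and how reads of several loci were handled is not given in the sources used here. Sorted values were identical in all 10 libraries at 347 of the 1061 ranks (to within 1e-09), as quantile normalisation gives, so the depth is unknown and a change that left ranks in place would not be seen. Between 162 and 239 miRNAs were at 0 in a library, but no member was. The table held 0 columns of other samples.

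miRNAs with a mean of at least 10 were fitted as log2(value + 1) with limma 3.58.1 in R 4.3.3, with side and mouse as terms and a mean-variance trend, since both eyes of a number are from 1 animal. Deviations from the side means correlated within mice by 0.0893, 0.382, 0.159, 0.295 and 0.138 in mice 61, 64, 65, 66 and 68 (across miRNAs, which are not independent). The p-values are two-sided and were adjusted over all tested miRNAs (Benjamini-Hochberg, threshold 0.05). For the 3 ratios the signs of the 5 differences were flipped in all ways (exact test). Nothing says whether libraries of different mice were prepared together.

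The members and the 10 lists were chosen with earlier results of these data known. The text names the members, the 2 most abundant miRNAs of each list, and for each member the 3 tested miRNAs nearest in level and in centred profile. Other miRNAs, such as miR-1a-3p, miR-206-3p and miR-223-3p, were chosen after their values were seen. Loci are from GENCODE M21. The last base of a position is the table's end minus 1, since the table's end lay 1 base beyond that of RefSeq for 908 of 908 miRNAs compared.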

Additional observations from a re-analysis of the deposited data

Results flagged for a closer look

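miR-124-3p in the right retina of mouse 65, at 88655.3 normalised counts, lay far from the other 4 right libraries, which were all at 81299.8. The gap is 1 rank, from 13 to 12, and the left retina of mouse 68 had the same value of 88655.3. Of 21 sets of 5 values examined for the members and their ratios, this 1 stood out. The criterion is set so that chance gives about 1 in 20 for continuous values. Here 4 of the 5 values were tied, and the rate for such stepped values was not measured.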

How the results depend on the processing

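Without mouse as a replicate block, 0 miRNAs passed right against left by limma and 13 were at an unadjusted p under 0.05, the fold changes of the members were the same by construction, and the exact permutation p of the 3 ratios was 0.881 for miR-124 arms, 0.905 for miR-9 arms and 0.762 for miR-124-3p to miR-9-5p, so that the block changed no call. With a pseudocount of 10 or 0.1, no filter, a filter at a mean of 100, median-ratio rescaling or no trend, 0 miRNAs passed right against left and each member kept its sign. Between mice, 5 miRNAs passed without the trend and 12 with median-ratio rescaling, against 8. Removing GC trends, chosen after seeing the data, turned miR-9-3p to 0.035 and miR-9-5p to 0.047. Leaving out each mouse gave log2 fold changes from -0.0069 to 0.056 for miR-124-3p, 0.014 to 0.046 for miR-124-5p, -0.065 to 0.038 for miR-9-5p and -0.18 to 0.019 for miR-9-3p. The log2 arm ratio difference ran from -0.043 to 0.016 for miR-124 and from -0.044 to 0.12 for miR-9, and that of miR-124-3p to miR-9-5p from 0.0071 to 0.070. Between 3 and 7 miRNAs passed between mice, and none of the members did in any of these settings. The unknown depth and the steps of the normalised values limit the precision.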

Other observations

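The table also lists a miRNA from the strand opposite the miR-9 hairpins. miR-9b-5p is printed with its seed in capitals, since its sequence resembles that of miR-9-5p.

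miR-9b-5p: uUCGGUUAucuagcuuuauga

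It lies on the minus strand of chromosome 3 from 88215650 to 88215670, inside the Mir9-1 locus, and with the same sequence on the minus strand of chromosome 7 from 79505316 to 79505336, inside the Mir9-3 locus. It is the reverse complement of 21 bases of the Mir9-1 hairpin. In the best ungapped overlap, 19 of its 21 bases are the same as in miR-9-5p, but its seed differs. Its level was between 1 and 5.45 normalised counts in the 10 libraries, with a mean of 2.78, and the mean of miR-9-5p was 19056 times as high. miR-124b-3p, listed on the minus strand at the copy of miR-124 on chromosome 3, was between 0.700 and 6.90 with a mean of 3.62, and the mean of miR-124-3p was 22693 times as high. Both were below the mean of 10 needed for the test, and values this low need not mean that a miRNA was detected.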
